A study of Mus musculus with 9 samples.

Results

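The genes described here are Chrm1, Chrm3 and Chrnb4, which encode the muscarinic acetylcholine receptors M1 and M3 and the β4 subunit of nicotinic acetylcholine receptors. They are 3 of the 24421 genes in the expression table, and they were chosen because the level of each was highest in the goblet-enriched population of the mouse colon. Their goblet levels, and every comparison with those levels, are therefore a description and carry no test. The difference between the other populations was not used for the choice and was tested. Messenger RNA was sequenced from 3 populations of colon epithelial cells sorted by surface antigens, with 3 libraries each, from C57BL/6J mice. The question put to these genes is how their transcripts, and those of the genes that make, break down and relay acetylcholine, are spread over the populations.

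All populations were sorted from adult mice of the wild-type strain C57BL/6J, labelled female, with no treatment or transgene named. All carried Epcam. Gates removed dead cells and doublets, and also cells that bore antigens of leukocytes or endothelium. The Lgr5-enriched population was Epcam+, Cd44+ and Kit-negative. The goblet-enriched population was Epcam+, Cd44+ and Kit+ and is labelled as bottom crypt. The enterocyte-enriched population was Epcam+, Cd44-negative and Cd66a-high and is labelled as top crypt. The series text gives an independent mouse for each of 3 replicates, and libraries with the same replicate number deviated together, but replicate 1 of the enterocyte-enriched population went against its labelled sex, as given below, and by these transcripts does not come from the same mouse as replicate 1 of the others. The sorts are enrichments, not pure types. In these bulk libraries, fewer cells of a type and less RNA per cell cannot be told apart.

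Acetylcholine reaches the colon epithelium from enteric neurons and from non-neuronal sources such as tuft cells. M1 and M3 are G protein-coupled receptors that act through the Gq family and phospholipase C beta: inositol trisphosphate opens calcium stores, and the rise in calcium drives mucin granule release and other goblet cell responses. Nicotinic receptors are ion channels built from 5 subunits, and β4 forms a channel together with α subunits such as α3, which α5 can join as an accessory subunit. Acetylcholinesterase and butyrylcholinesterase end the signal.

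Chrm1 (ENSMUSG00000032773.9) lies on the plus strand of mm10 at chr19:8663789-8683587, Chrm3 (ENSMUSG00000046159.16) on the minus strand at chr13:9875486-10360847, and Chrnb4 (ENSMUSG00000035200.7) on the minus strand at chr9:55028154-55048779, all protein-coding genes of the GENCODE annotation. Promoters of 300 bases, 250 before and 50 after the RefSeq start, were found for 2 of the 3 genes, and they are shown because the genes share a population while the sequences can be compared letter by letter. They come from RefSeq on GRCm38.p6, and both lie on the minus strand: Chrm3 at chr13:10360754-10361053 and Chrnb4 at chr9:55048495-55048794. The sequences run 5′ to 3′, and capitals mark the E-box CAGCTG.
Chrm3: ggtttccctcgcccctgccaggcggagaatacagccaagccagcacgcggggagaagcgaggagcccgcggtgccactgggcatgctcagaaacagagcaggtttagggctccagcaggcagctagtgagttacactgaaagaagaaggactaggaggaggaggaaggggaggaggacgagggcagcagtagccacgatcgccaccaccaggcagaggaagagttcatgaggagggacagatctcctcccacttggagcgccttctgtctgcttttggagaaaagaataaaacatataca
Chrnb4: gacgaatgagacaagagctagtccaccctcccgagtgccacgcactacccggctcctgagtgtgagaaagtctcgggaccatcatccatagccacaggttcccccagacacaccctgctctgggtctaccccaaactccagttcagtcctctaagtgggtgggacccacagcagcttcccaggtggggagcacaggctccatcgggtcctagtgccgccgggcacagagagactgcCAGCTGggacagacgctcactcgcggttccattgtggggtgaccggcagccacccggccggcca
The Chrnb4 promoter held 1 CAGCTG, which begins 14 bases before the start and reads the same on both strands, and the Chrm3 promoter held none. The RefSeq start of Chrnb4 is at 55048544, while the GENCODE gene begins at 55048779 on the minus strand. By the GENCODE bounds this site lies within the gene. CAGCTG was present in 16.3% of all 32851 promoters of this length in the table. The other E-box searched, CAGATG on either strand, was in neither promoter and in 17.2% of all. The ETS core GGAA occurred 3 times in each, counted on both strands, and in 96.0% of all promoters. CCGGAT, an ETS-type site without the GGAA core, was in neither promoter and in 6.04% of all. The GC box GGGCGG was in neither and in 35.7% of all, and TATAAA was in neither and in 13.6% of all. The GC content was 57.3% for Chrm3 and 63.0% for Chrnb4, against a median of 52.7% over all promoters.

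Depth, recovered from the deposited values, ran from 11.2 to 26.8 M reads per library (M, times 1000000). The unit is TPM, transcripts per 1000000, which corrects for transcript length, and 3 reads in a gene of 1 kb were worth 0.287 to 0.624 TPM. The summed level of 10 goblet markers was 49070 to 65030 TPM in the goblet-enriched libraries, 1569 to 1765 TPM in the Lgr5-enriched and 15550 to 23180 TPM in the enterocyte-enriched ones. Not all 10 were highest in the goblet-enriched libraries, as given below. The library labelled enterocyte-enriched replicate 1 went against its label of female: Xist was at 0.128 TPM, where the other 8 libraries had 110.3 to 203.7 TPM, and 4 Y-linked genes summed to 138.6 TPM against at most 0.32 TPM elsewhere. The means and tests of the receptors and the counts of listed genes are given with and without it, and the named calls that are lost without it are given with their values.

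Among muscarinic receptors Chrm1 was the most abundant. In goblet-enriched replicates 1 to 3 it stood at 15.6, 21.6 and 20.3 TPM (560, 716 and 658 reads). In the Lgr5-enriched libraries it stood at 1.23, 3.97 and 3.70 TPM, and in the enterocyte-enriched libraries at 2.15, 2.70 and 3.16 TPM. The 3 goblet-enriched libraries were the highest of the 9 and lay above all others with no overlap, while the other populations overlapped, with the lowest value in Lgr5-enriched replicate 1. The means were 19.2 ± 3.13 TPM in the goblet-enriched, 2.97 ± 1.51 TPM in the Lgr5-enriched and 2.67 ± 0.505 TPM in the enterocyte-enriched population (SD, n = 3 each). The goblet mean was 6.45-fold that of the Lgr5-enriched and 7.18-fold that of the enterocyte-enriched population, or 6.54-fold without enterocyte-enriched replicate 1.

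Chrm3, the receptor best known for driving secretion in exocrine glands, was lower per length. Its goblet-enriched libraries stood at 10.8, 9.15 and 15.7 TPM (195, 153 and 257 reads). The Lgr5-enriched libraries stood at 0.272, 1.76 and 2.24 TPM (9, 27 and 40 reads) and the enterocyte-enriched libraries at 0.328, 0.641 and 0.825 TPM (5, 14 and 15 reads). Again the goblet-enriched libraries lay above all others, and the other populations overlapped because Lgr5-enriched replicate 1 was the lowest library of all. The means were 11.9 ± 3.41, 1.42 ± 1.03 and 0.598 ± 0.251 TPM (SD, n = 3) in the goblet-, Lgr5- and enterocyte-enriched populations. The goblet mean was 8.35-fold the Lgr5-enriched and 19.9-fold the enterocyte-enriched mean, or 16.2-fold without enterocyte-enriched replicate 1.

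Chrnb4 was the most abundant of the 3 in goblet-enriched cells and the lowest in Lgr5-enriched cells. Its goblet-enriched libraries stood at 46.6, 20.4 and 28.4 TPM (926, 376 and 512 reads). The Lgr5-enriched libraries stood at 0.522, 0.118 and 0.509 TPM, from 19, 2 and 10 reads, and the enterocyte-enriched libraries at 0.776, 0.541 and 1.85 TPM, from 13, 13 and 37 reads. All 3 populations were separate for this gene, with Lgr5-enriched lowest and goblet-enriched highest, although the lowest enterocyte-enriched library lay just above the highest Lgr5-enriched one. The means were 31.8 ± 13.4, 0.383 ± 0.229 and 1.06 ± 0.698 TPM (SD, n = 3) in the goblet-, Lgr5- and enterocyte-enriched populations. The goblet mean was 83.0-fold the Lgr5-enriched mean, which rests on 31 reads, and 30.2-fold the enterocyte-enriched mean, or 26.6-fold without enterocyte-enriched replicate 1.

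**Figure D1:**
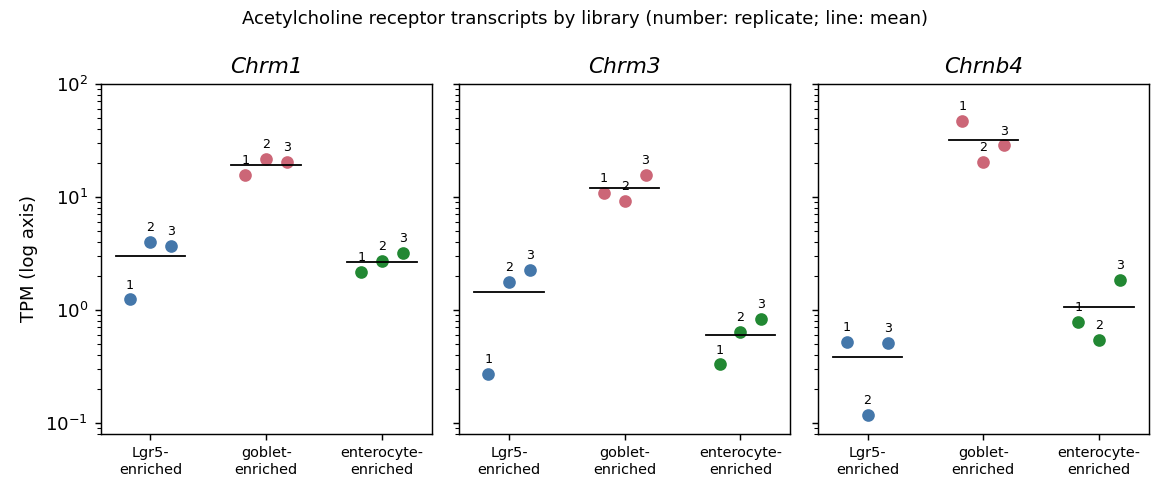
Level of Chrm1, Chrm3 and Chrnb4 in TPM on a log axis, 1 point per library with its replicate number and a line at the mean of each population. For each gene the 3 goblet-enriched libraries sit above the other 6, from 9.15 TPM (Chrm3) to 46.6 TPM (Chrnb4).

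The 3 receptors varied differently among the goblet-enriched libraries. The coefficient of variation over these libraries was 16.3% for Chrm1, 28.7% for Chrm3 and 42.1% for Chrnb4. Replicate 1 had the lowest Chrm1 and the highest Chrnb4, so the ratio of Chrnb4 to Chrm1 was 2.98 there, against 0.947 and 1.40 in replicates 2 and 3. The ratio of Chrm1 to Chrm3 was 1.45, 2.36 and 1.29 in goblet-enriched replicates 1 to 3, while it ran from 3.83 to 6.55 in the enterocyte-enriched libraries, with no overlap. The enterocyte-enriched ratios rest on 5, 14 and 15 Chrm3 reads in replicates 1 to 3, and 6.55 is that of replicate 1. In the Lgr5-enriched libraries it was 4.54, 2.26 and 1.65, the first of them from 9 Chrm3 reads. The goblet means placed Chrnb4 at rank 5401, Chrm1 at rank 7172 and Chrm3 at rank 8563 of the 12888 genes that had at least 1 TPM in at least 3 libraries, whose median goblet mean was 23.8 TPM.

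Outside the goblet-enriched population, the receptors were tested between enterocyte-enriched and Lgr5-enriched cells with limma on log2(TPM + 1), and none of the 3 was called at an adjusted p below 0.05. Over all genes, 49.6% were called in this comparison (12.0% higher and 37.6% lower in enterocyte-enriched cells), and the median difference of all tested genes was -0.346. Without the goblet-enriched libraries, Chrm3 and Chrnb4 would not have reached 1 TPM in 3 libraries. The share of all genes is therefore not a like measure for these receptors. For Chrm1 the difference, enterocyte minus Lgr5, was -0.035 (SE 0.31, 95% interval -0.73 to 0.659, adjusted p = 0.934), and its sign turned under other scalings and without enterocyte-enriched replicate 1 (0.070, adjusted p = 0.888). For Chrm3 it was -0.51 (SE 0.36, interval -1.31 to 0.302, adjusted p = 0.268; -0.38, adjusted p = 0.489 without enterocyte-enriched replicate 1), and the call was gained at -0.92 (adjusted p = 0.0249) without Lgr5-enriched replicate 1. For Chrnb4 it was 0.53 (SE 0.34, interval -0.224 to 1.29, adjusted p = 0.215; 0.61, adjusted p = 0.238 without that library). On the log2(TPM + 1) scale the intervals leave room for a difference of more than 1 unit in Chrm3 and Chrnb4. This scale understates the fold changes of low genes, so the intervals do not bound the ratios in TPM. The ratio of the enterocyte- to the Lgr5-enriched mean was 0.90 for Chrm1, 0.42 for Chrm3 and 2.75 for Chrnb4. Outside the goblet-enriched libraries the values of Chrm3 and Chrnb4 rest on 31 to 76 reads per population.

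The rest of the receptor family was low. The table lists 21 receptor genes, 5 muscarinic and 16 nicotinic, of which 7 were at 0 in every library (Chrm2, Chrm5, Chrna6, Chrna7, Chrnb3, Chrnd and Chrng) and 13, these included, stayed below 1 TPM in every library. At this depth, 0 reads allow up to 3 reads per library. Besides the 3 described, 3 passed the filter on low values: Chrna1, Chrnb1 and Chrnb2.

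Chrm4, the Gi-coupled M4 receptor, was too low to be tested. It stood at 1.33, 0.685 and 1.40 TPM in the goblet-enriched libraries (21, 10 and 20 reads). Its Lgr5-enriched libraries stood at 0.415, 0.0745 and 0.256 TPM and its enterocyte-enriched libraries at 0.226, 0.262 and 0.378 TPM. The goblet-enriched libraries lay above the others without overlap, at 4.57-fold the Lgr5-enriched and 3.95-fold the enterocyte-enriched mean.

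Among nicotinic subunits other than β4, Chrna1, the α subunit of the muscle receptor, also had its highest values in the goblet-enriched libraries. It stood at 1.38, 1.10 and 1.30 TPM there (34, 25 and 29 reads), at 0.0887 TPM in Lgr5-enriched replicate 1 and at 0 in replicates 2 and 3. Enterocyte-enriched libraries had 0.0482, 0.101 and 0.0807 TPM. The goblet-enriched libraries lay above the other 6 without overlap. No test is given, because the gene passed the filter only through the goblet-enriched libraries and had to differ.

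The α subunits that are known to join β4 were near 0. Chrna3 had 4 reads in all libraries together, 3 of them in goblet-enriched cells, and its goblet mean was 0.0592 ± 0.0607 TPM (SD, n = 3). Chrna5, an accessory subunit, had 9 reads in all, 4 of them in goblet-enriched cells. Chrna4 had 37 reads, of which 25 were in enterocyte-enriched cells (0.333 ± 0.0819 TPM) and 2 in goblet-enriched cells, and it was not tested. The transcripts of β4 and of these partner subunits were thus of very unequal level in the goblet-enriched libraries.

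The other β subunits that passed the filter were low in every population. Chrnb1 stood at 1.54 ± 0.263, 2.07 ± 0.338 and 2.39 ± 0.391 TPM in Lgr5-, goblet- and enterocyte-enriched cells. Chrnb2 had means of 2.28 ± 0.614, 1.44 ± 0.568 and 1.48 ± 0.408 TPM, listed likewise. Neither was called in any of the 3 comparisons by limma, though Chrnb1 was called between enterocyte- and Lgr5-enriched cells under other scalings. Chrna10, a subunit of the hair cell receptor, had 48 reads, its highest mean was in enterocyte-enriched cells (0.646 ± 0.342 TPM), and it was not tested.

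**Figure D2:**
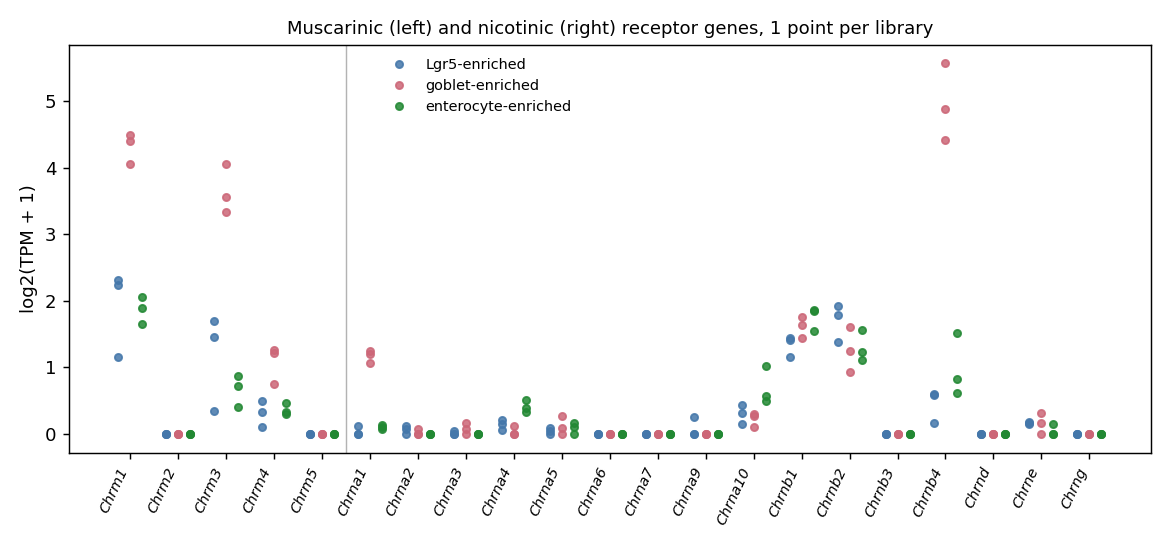
Level of the 21 acetylcholine receptor genes as log2(TPM + 1), 1 point per library coloured by population, muscarinic genes to the left of the line. Chrm1, Chrm3 and Chrnb4 in goblet-enriched libraries stand above every other value, and 7 genes lie at 0 in all libraries.

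Chrnb4 lies in a cluster with Chrna3 and Chrna5, which were 1592 and 20375 bases away in mm10, and the genes around it were compared with it. The list of neighbours held 10 genes, but 4 of them, Adamts7, Morf4l1, Ctsh and Rasgrf1, proved to lie more than 34861000 bases away on the mouse chromosome and are not neighbours. Of the 6 near genes, Psma4, Hykk and Ireb2 passed the filter. Hykk, a hydroxylysine kinase gene 78230 bases away, stood at 3.40 TPM in Lgr5-enriched, 7.88 TPM in goblet-enriched and 5.03 TPM in enterocyte-enriched cells. Its level was higher in goblet- than in Lgr5-enriched cells by 1.03 on the log2(TPM + 1) scale (adjusted p = 0.0194), a call lost without Lgr5-enriched or without goblet-enriched replicate 1 (adjusted p up to 0.0561). Ireb2, which encodes an iron regulatory protein, was higher in goblet- than in enterocyte-enriched cells by 0.54 (adjusted p = 0.0206), a call lost without enterocyte-enriched replicate 2 and under both other scalings (adjusted p up to 0.125). Psma4, a proteasome subunit gene at 215 TPM in goblet-enriched cells, was called in neither goblet comparison.

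In the lists of related genes, 145 symbols besides the 3 receptors were looked up, and 80 were tested. Over all tested genes, 34.3% were called between goblet- and Lgr5-enriched cells (10.7% higher and 23.6% lower in goblet), and 44.1% between goblet- and enterocyte-enriched cells (28.2% higher and 15.9% lower). Of the 80, 24 were higher and 14 lower in goblet- than in Lgr5-enriched cells (47.5%), with a median difference of 0.201 against -0.256 over all genes. Against enterocyte-enriched cells, 26 were higher and 22 lower (60.0%), with medians of 0.0533 and 0.203. Between enterocyte- and Lgr5-enriched cells, 22 were higher and 12 lower (42.5%, against 49.6% of all genes). Without enterocyte-enriched replicate 1, 42 of the 48 genes called against enterocyte-enriched cells kept their call (23 higher and 19 lower), and the split between enterocyte- and Lgr5-enriched cells was 20 to 11. Among the called genes, Chrna1 and Adrbk2 passed the filter only through the goblet-enriched libraries and Sstr1 only through the enterocyte-enriched ones, so their calls were built into the filter. The lists were chosen with these data known, and no test was made of a list as a whole.

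Other scalings between libraries shift these splits. The median difference of all genes moved from -0.256 to -0.05 (goblet minus Lgr5), from -0.346 to 0.026 (enterocyte minus Lgr5) and from 0.203 to 0.037 (goblet minus enterocyte) under median-of-ratios scaling. With it, 1850 genes were higher and 1545 lower in goblet- than in Lgr5-enriched cells, where the main fit had 1384 and 3039. Between enterocyte- and Lgr5-enriched cells it gave 3028 and 2522 in place of 1549 and 4847, and between goblet- and enterocyte-enriched cells 2564 and 2741 in place of 3633 and 2054. The listed genes split 29 to 14, 37 to 9 and 22 to 24 in the same comparisons.

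**Figure D3:**
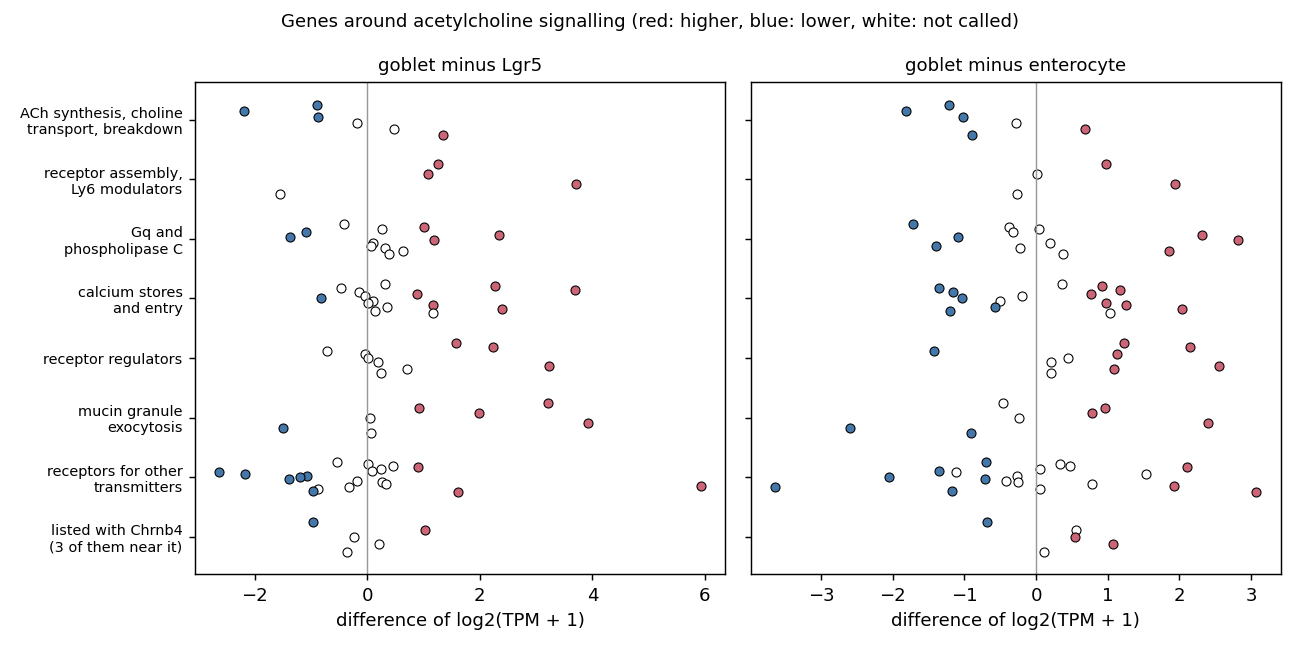
Difference of log2(TPM + 1) between goblet-enriched cells and each other population for the 80 tested genes around acetylcholine signalling, 1 point per gene, grouped by list, red where higher, blue where lower and white where not called. The 3 called genes of the Ly6 and assembly list sit to the right of 0 against Lgr5-enriched cells, and most other lists hold points on both sides.

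Genes that make acetylcholine were hardly seen in any sorted population. Chat, the enzyme that makes it, was at 0 in all 3 Lgr5-enriched libraries, at 0, 0.337 and 0.62 TPM in the goblet-enriched and at 0, 0.258 and 0.062 TPM in the enterocyte-enriched libraries. Slc18a3, the vesicular transporter, was at 0 in 8 of 9 libraries. Slc5a7, the high-affinity choline transporter, reached 1.93 TPM in enterocyte-enriched replicate 1 and at most 0.308 TPM in any other library. None of these passed the filter.

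Genes that break acetylcholine down were lower in goblet-enriched cells. Bche, butyrylcholinesterase, stood at 2.18, 3.88 and 3.87 TPM in the goblet-enriched libraries. It stood at 13.5, 20.3 and 21.7 TPM in the Lgr5-enriched and at 11.9, 17.3 and 12.9 TPM in the enterocyte-enriched libraries. All goblet-enriched libraries lay below all others, with differences of -2.18 from Lgr5-enriched (SE 0.25, adjusted p = 0.000345) and -1.81 from enterocyte-enriched cells (SE 0.25, adjusted p = 0.000564). Ache, acetylcholinesterase, stood at 4.76, 7.20 and 7.44 TPM in the goblet-enriched libraries, below every Lgr5-enriched (9.18 to 15.8 TPM) and enterocyte-enriched library (14.0 to 20.3 TPM). Its differences were -0.90 (adjusted p = 0.0233) and -1.21 (adjusted p = 0.00451), and the first was lost without Lgr5-enriched replicate 2, Lgr5-enriched replicate 3 or goblet-enriched replicate 1 (adjusted p up to 0.0905).

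Choline transporters of the Slc44 family moved in both directions, and with the cholinesterases they made 1 higher and 3 lower of 6 tested genes against Lgr5-enriched cells, and 1 higher and 4 lower against enterocyte-enriched cells (66.7% and 83.3% called, against 34.3% and 44.1% of all genes). Slc44a1, the general choline transporter, was lower in goblet-enriched cells (79.0 TPM) than in Lgr5-enriched (146 TPM, difference -0.88, adjusted p = 0.0012) and enterocyte-enriched cells (162 TPM, -1.02, adjusted p = 0.000344). Slc44a4 was higher in goblet- (330 TPM) than in Lgr5-enriched cells (128 TPM, 1.35, adjusted p = 0.00495) and lower than in enterocyte-enriched cells (642 TPM, -0.89, adjusted p = 0.0228). The second of these was lost without goblet-enriched replicate 1 (adjusted p = 0.0723). Slc44a3 was higher in goblet- (156 TPM) than in enterocyte-enriched cells (96.9 TPM, 0.68, adjusted p = 0.0151), a call lost without goblet-enriched replicate 2 or enterocyte-enriched replicate 1 (0.56, adjusted p = 0.0522).

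Among the genes for nicotinic receptor assembly and Ly6-type modulators, 4 of 10 were tested, and 3 were higher in goblet- than in Lgr5-enriched cells and 2 higher than in enterocyte-enriched cells, with none lower (3 of 4 and 2 of 4 called, against 34.3% and 44.1% of all genes). Tmem35, a chaperone of nicotinic receptors and the remaining tested gene, stood at 0.0914, 1.78 and 1.21 TPM in goblet-enriched replicates 1 to 3 and at 0.749, 9.25 and 8.23 TPM in Lgr5-enriched ones. Its difference of -1.54 was not called (adjusted p = 0.139), but it was called with the replicate number as a block (adjusted p = 0.00369). Lypd6b, a Ly6 protein that modulates nicotinic receptors, stood at 32.2, 27.0 and 19.6 TPM in the goblet-enriched libraries. It stood at 0.838 to 1.54 TPM in the Lgr5-enriched and at 5.49 to 6.28 TPM in the enterocyte-enriched libraries. It was separate in all 3 populations and higher in goblet-enriched cells by 3.70 (SE 0.22, adjusted p = 9.33e-06) and 1.93 (SE 0.22, adjusted p = 0.000207). Ly6e, a widely expressed Ly6 protein, stood at 422, 998 and 528 TPM in Lgr5-, goblet- and enterocyte-enriched cells (1.25, adjusted p = 0.0057, and 0.97, adjusted p = 0.0132). Lynx1, which damps nicotinic receptors, was higher in goblet- (6.40 TPM) than in Lgr5-enriched cells (2.47 TPM, 1.09, adjusted p = 0.00646) and stood at 6.26 TPM in enterocyte-enriched cells, a difference that was not called.

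In the Gq and phospholipase C list, the step just after M1 and M3, 12 of 16 genes were tested. Against Lgr5-enriched cells 3 were higher and 2 lower, and against enterocyte-enriched cells 3 were higher and 3 lower. The shares, 5 of 12 and 6 of 12, lie near the 34.3% and 44.1% of all genes. The phospholipase C beta genes went opposite ways. Plcb1 stood at 13.5, 9.93 and 6.61 TPM in goblet-enriched libraries, against 0.498 to 1.47 TPM in Lgr5-enriched and 1.02 to 1.25 TPM in enterocyte-enriched libraries (2.35, adjusted p = 0.000456, and 2.32, adjusted p = 0.000304). Plcb4 stood at 61.1, 37.5 and 31.8 TPM in goblet-enriched libraries, against 14.4 to 21.1 TPM and 4.23 to 5.85 TPM (1.18, adjusted p = 0.00736, and 2.82, adjusted p = 7.01e-05). Both were separate from the other populations and, like Chrnb4, highest in goblet-enriched replicate 1.

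Plcb3, by level the main member of that family in each population, was lower in goblet-enriched cells. It stood at 108, 173 and 165 TPM there, against 282 to 449 TPM in Lgr5-enriched (-1.38, adjusted p = 0.00205) and 296 to 337 TPM in enterocyte-enriched libraries (-1.10, adjusted p = 0.0042). Gna14, a Gq-family α subunit, was higher in goblet- (64.4 TPM) than in Lgr5-enriched cells (30.7 TPM, 1.02, adjusted p = 0.011). Gna11, another of that family, was lower than in enterocyte-enriched cells (91.2 and 303 TPM, -1.72, adjusted p = 9.51e-05). Prkcd, a protein kinase C gene, was also lower than in enterocyte-enriched cells (125 and 332 TPM, -1.39, adjusted p = 0.000465). Marcks, a protein kinase C substrate, was lower in goblet- (42.6 TPM) than in Lgr5-enriched cells (91.4 TPM, -1.09, adjusted p = 0.000495).

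In the list of calcium stores and calcium entry, 15 of 19 genes were tested, with 5 higher and 1 lower against Lgr5-enriched cells and 6 higher and 5 lower against enterocyte-enriched cells. The shares were 40.0% and 73.3%, against 34.3% and 44.1% of all genes. Stim2, a sensor of calcium in the endoplasmic reticulum, stood at 114, 71.6 and 71.9 TPM in goblet-enriched libraries, against 13.2 to 16.7 TPM and 19.5 to 19.8 TPM in Lgr5- and enterocyte-enriched ones. Its differences were 2.39 (SE 0.19, adjusted p = 4.54e-05) and 2.04 (SE 0.19, adjusted p = 7.97e-05). Orai3, a channel that such sensors open, stood at 36.4 TPM in goblet-enriched cells and at 15.6 and 14.8 TPM in Lgr5- and enterocyte-enriched cells (1.17, adjusted p = 0.00125, and 1.25, adjusted p = 0.000537). Of the 3 tested pumps that fill stores, 2 were called higher in both comparisons. Atp2a3, a pump of the endoplasmic reticulum, stood at 1404 TPM in goblet-, 297 TPM in Lgr5- and 736 TPM in enterocyte-enriched cells (2.27, adjusted p = 0.000187, and 0.91, adjusted p = 0.0122). Atp2c2, a Golgi calcium and manganese pump, had means of 217, 16.3 and 95.1 TPM, listed likewise (3.69, adjusted p = 1.1e-05, and 1.17, adjusted p = 0.00344). Atp2a2, another pump of the endoplasmic reticulum, stood at 214, 171 and 167 TPM and was not called (0.32, adjusted p = 0.282, and 0.36, adjusted p = 0.211), though it was with the replicate number as a block (adjusted p = 0.0178 and 0.00936).

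The inositol trisphosphate receptor genes went different ways. Itpr1 was higher in goblet-enriched cells, at 15.2 TPM against 7.56 TPM in Lgr5-enriched (0.88, adjusted p = 0.0209) and 8.38 TPM in enterocyte-enriched cells (0.76, adjusted p = 0.0293). The first call was lost without Lgr5-enriched replicate 1 or goblet-enriched replicate 2 (adjusted p up to 0.0658), and the second without goblet-enriched replicate 2, enterocyte-enriched replicate 1 or 2 and under both other scalings (adjusted p up to 0.0982; 0.61, adjusted p = 0.0976 without enterocyte-enriched replicate 1). Itpr2 was called in neither (-0.035, adjusted p = 0.965, and -0.19, adjusted p = 0.779). Itpr3 was lower in goblet-enriched cells, at 49.6 TPM against 88.8 TPM in Lgr5-enriched (-0.83, adjusted p = 0.0128, lost without Lgr5-enriched replicate 3 at 0.053) and 102 TPM in enterocyte-enriched cells (-1.04, adjusted p = 0.00305). Also lower than in enterocyte-enriched cells were Atp2b1, a pump of the plasma membrane (-1.36, adjusted p = 0.00295), Trpm4, a cation channel opened by calcium (-1.20, adjusted p = 0.00961), and Cd38, which makes a calcium-releasing messenger (-1.16, adjusted p = 0.0255). The call for Cd38 was lost without goblet-enriched replicate 2 or 3 or enterocyte-enriched replicate 1 or 3 (adjusted p up to 0.086; -0.76, adjusted p = 0.0633 without enterocyte-enriched replicate 1).

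**Figure D4:**
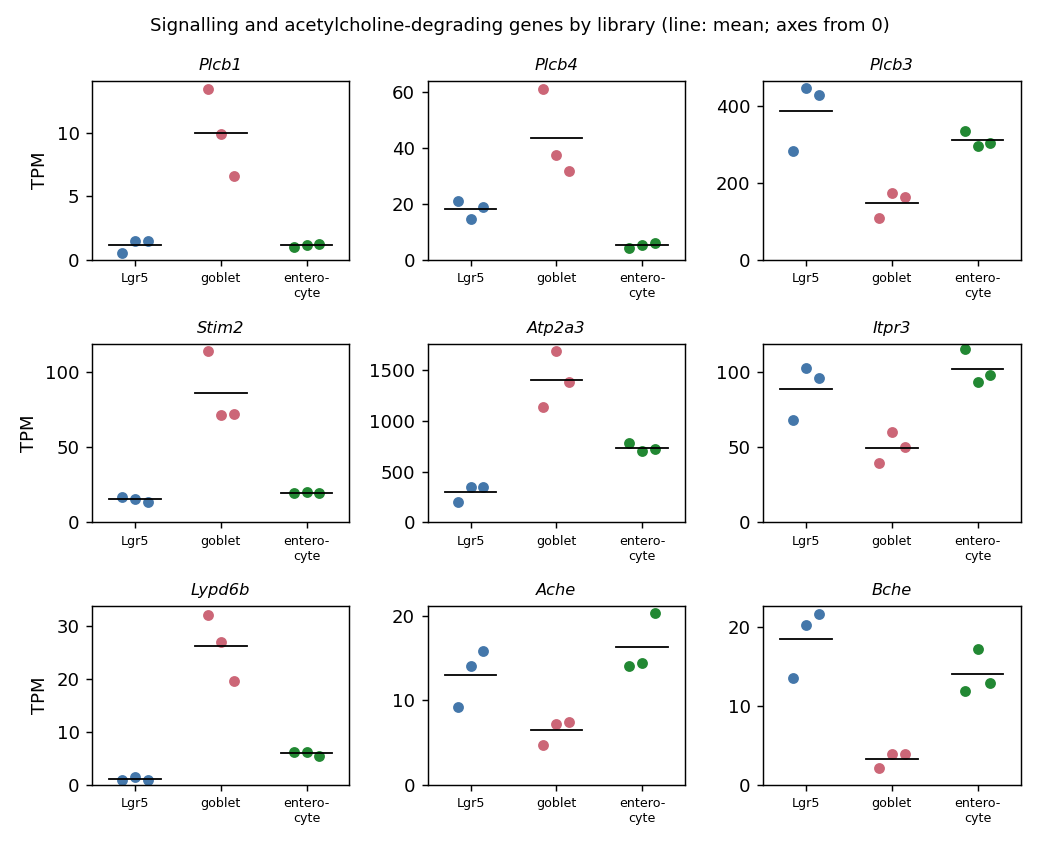
Level in TPM of 9 genes of acetylcholine signalling and breakdown, 1 point per library with a line at the mean and each axis from 0. Plcb1, Plcb4, Stim2, Atp2a3 and Lypd6b are highest and Plcb3, Itpr3, Ache and Bche lowest in the goblet-enriched libraries, with no overlap.

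Among regulators of G protein-coupled receptors, 9 of 12 were tested, 3 higher and 0 lower in goblet- than in Lgr5-enriched cells, and 5 higher and 1 lower than in enterocyte-enriched cells. The shares were 33.3% and 66.7%, the first near the 34.3% of all genes and the second beside 44.1%. Adrbk2 is counted as higher in both comparisons, and its calls were built into the filter. Rgs16, which speeds the switching off of Gq and Gi proteins, stood at 60.5, 24.8 and 21.3 TPM in the goblet-enriched libraries and at 1.14 to 6.70 TPM in the other 6. Its differences were 3.23 (SE 0.53, adjusted p = 0.00213) and 2.56 (SE 0.53, adjusted p = 0.00453). Adrbk1 and Adrbk2 are the receptor kinases now named Grk2 and Grk3. Adrbk1 stood at 204 TPM in goblet-enriched cells, against 67.3 and 86.5 TPM in Lgr5- and enterocyte-enriched cells (1.58, adjusted p = 1.31e-05, and 1.23, adjusted p = 5.23e-05). Adrbk2 stood at 5.17 TPM, against 0.29 and 0.359 TPM, with no test, since it passed the filter only through the goblet-enriched libraries. The β-arrestins went opposite ways against enterocyte-enriched cells: Arrb1 was lower (18.5 against 48.6 TPM, -1.42, adjusted p = 0.00783) and Arrb2 higher (6.03 against 2.18 TPM, 1.13, adjusted p = 0.00268).

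Of 8 genes for mucin granule exocytosis 7 were tested, 4 higher and 1 lower against Lgr5-enriched cells, and 3 higher and 2 lower against enterocyte-enriched cells. The share was 71.4% in both, against 34.3% and 44.1% of all genes. Syt7, a calcium sensor of exocytosis, stood at 99.4, 105 and 94.5 TPM in the goblet-enriched libraries, against 4.11 to 7.64 TPM and 12.8 to 22.5 TPM (3.92, adjusted p = 1.1e-05, and 2.39, adjusted p = 0.000115). Scin, a calcium-dependent actin-severing protein, was higher than in Lgr5-enriched cells (111 against 11.8 TPM, 3.21, adjusted p = 0.000215), and enterocyte-enriched cells stood at 151 TPM. Snap23, of the fusion machinery, was higher in goblet-enriched cells (110 TPM) than in Lgr5-enriched (56.6 TPM, 0.92, adjusted p = 0.00584) and enterocyte-enriched cells (54.7 TPM, 0.96, adjusted p = 0.00316). Unc13d, a priming factor, was the exception, at 2.39 TPM against 8.63 TPM (-1.50, adjusted p = 0.000262) and 19.5 TPM (-2.59, adjusted p = 2.55e-05). Vamp8, a granule fusion protein, was lower than in enterocyte-enriched cells (174 against 328 TPM, -0.90, adjusted p = 0.000541).

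Of 43 receptor genes for other transmitters and secretagogues, 19 were tested, and 3 were higher and 6 lower in goblet-enriched cells against each of the other populations. The share called, 47.4% in both, lies beside 34.3% and 44.1% of all genes. Against Lgr5-enriched cells all genes too were more often lower (23.6%) than higher (10.7%). Sstr1 is counted as lower than in enterocyte-enriched cells, a call that was built into the filter. Ramp1, a partner of the calcitonin gene-related peptide receptor, stood at 119, 226 and 159 TPM in goblet-enriched libraries, against 0.792 to 2.46 TPM and 28.4 to 52.3 TPM (5.93, adjusted p = 7.25e-06, and 1.93, adjusted p = 0.00192). Its receptor Calcrl stood at 7.55 TPM, against 3.43 TPM (0.90, adjusted p = 0.0182, lost without Lgr5-enriched replicate 2 or 3 at up to 0.0611) and 0.933 TPM (2.11, adjusted p = 0.000191). Vipr2, a receptor for vasoactive intestinal peptide, stood at 9.71 TPM, against 2.57 TPM (1.61, adjusted p = 0.00117) and 0.276 TPM (3.08, adjusted p = 4.36e-05).

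Among the receptors lower in goblet- than in Lgr5-enriched cells were Htr4, a serotonin receptor (11.6 against 65.1 TPM, -2.63, adjusted p = 0.0135), Npy1r, a neuropeptide Y receptor (7.40 against 33.2 TPM, -2.17, adjusted p = 0.0194), and P2ry6, a nucleotide receptor (19.0 against 50.7 TPM, -1.38, adjusted p = 0.000538). Htr4 lost its call without Lgr5-enriched replicate 3 (adjusted p = 0.0522), and Npy1r without Lgr5-enriched replicate 2 or 3 (adjusted p up to 0.0717). Lower than in enterocyte-enriched cells were P2ry2, a nucleotide receptor that also couples to Gq (-2.05, adjusted p = 7.44e-05), and Hrh1, a histamine receptor of the same coupling (-1.36, adjusted p = 0.00169). Sstr1, a somatostatin receptor that passed the filter only through the enterocyte-enriched libraries, stood at 19.1 TPM there and at 0.625 TPM in goblet-enriched cells.

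Markers of other cells that carry acetylcholine genes moved with the goblet-enriched libraries in part. Of 10 tuft markers, 9 are in the table, 4 were tested, and 2, Avil and Rgs13, were called higher in goblet-enriched cells in each comparison. Over all tested genes, 10.7% were higher in goblet- than in Lgr5-enriched cells and 28.2% than in enterocyte-enriched cells. Rgs13 passed the filter only through the goblet-enriched libraries. Their summed level was 7.94, 18.8 and 54.5 TPM in goblet-enriched replicates 1 to 3, against 1.98 to 5.85 TPM in Lgr5-enriched and 3.39 to 7.40 TPM in enterocyte-enriched libraries, and Il25 was at 0 in all goblet-enriched libraries. Chrnb4 was highest in goblet-enriched replicate 1, where the tuft sum was lowest of the 3, and Chrm3 was highest in replicate 3, where it was highest. The part of tuft cells in the receptor levels was not tested.

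Enteric neuron markers summed to 0.956 to 2.73 TPM in the goblet-enriched libraries, against 0.676 to 2.30 TPM and 2.48 to 5.75 TPM in Lgr5- and enterocyte-enriched ones. Enteric glia markers summed to 0.661 to 2.11 TPM, with Sox10 at 0 in all goblet-enriched libraries. The part of neurons and glia in the receptor levels was not tested. Enteroendocrine markers summed to 13.1 to 79.5 TPM in goblet-enriched libraries, against 157 to 298 TPM in Lgr5- and 149 to 240 TPM in enterocyte-enriched libraries. Of 7 tested, 3 (Pyy, Gcg and Insl5) were called lower against Lgr5-enriched cells and none higher, and 4 lower against enterocyte-enriched cells. Over all tested genes, 23.6% and 15.9% were lower in these comparisons. Chgb, at 27.2 against 19.8 TPM in Lgr5-enriched cells, and Neurod1, at 1.22 against 0.424 TPM, had the higher mean in goblet-enriched cells and were not called.

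The share of the goblet level that remained in the other populations differed between the receptors and between goblet markers. Chrnb4 stood at 1.2% of its goblet mean in Lgr5-enriched and 3.32% in enterocyte-enriched cells. Chrm1 stood at 15.5% and 13.9%, and Chrm3 at 12.0% and 5.03%. Muc2, the main secreted colonic mucin, stood at 0.461% and 10.6%, and Spdef, a transcription factor of goblet cells, at 0.865% and 8.46%. For all 10 goblet markers the enterocyte-enriched share was the larger one, up to Zg16, a lectin-like secreted protein, at 27.6% and 1590%. Tff3 stood at 4.3% and 171%, Fcgbp at 2.26% and 117% and Clca1 at 1.96% and 99.5%. In the main fit all 10 were called higher in goblet- than in Lgr5-enriched cells (10.7% of all genes were). Against enterocyte-enriched cells 6 were called higher and 2 lower (28.2% and 15.9% of all genes). Chrm1 and Chrm3 had the larger share in Lgr5-enriched cells, but the difference between these populations was not called for either, as given above.

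**Figure D5:**
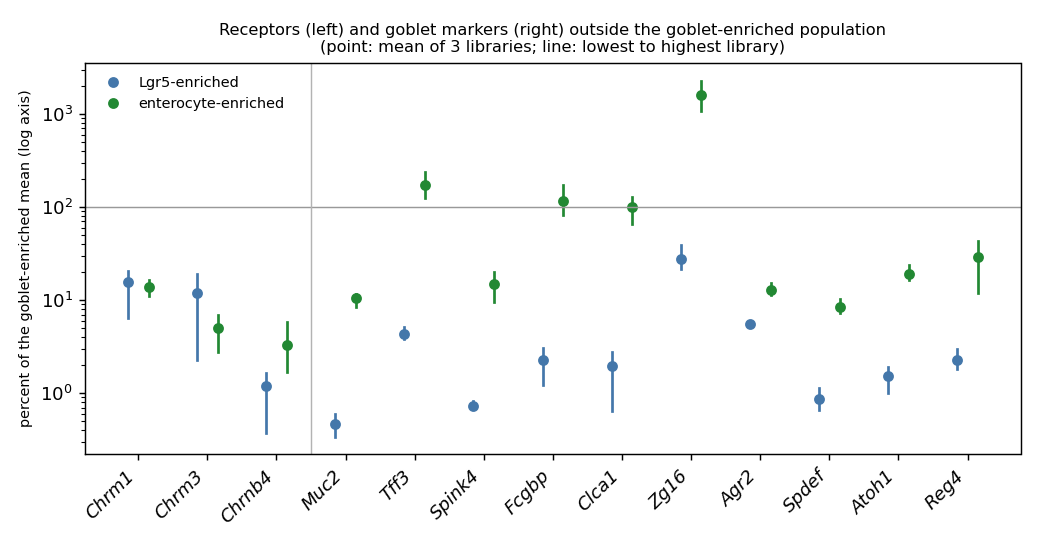
Level in Lgr5- and enterocyte-enriched libraries as a percent of the goblet-enriched mean, on a log axis, for the 3 receptors (left of the line) and 10 goblet markers, with points for the mean of 3 libraries and lines from the lowest to the highest library. Chrnb4 lies at 1.2% and 3.32%, while Zg16 lies at 27.6% and 1590%.

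The pattern of each receptor over the 9 libraries was compared with that of all other tested genes by Pearson's r of log2(TPM + 1), as a description, since the 9 points share 3 populations and 3 replicate numbers. Among themselves r was 0.977 for Chrm1 and Chrm3, 0.922 for Chrm1 and Chrnb4, and 0.91 for Chrm3 and Chrnb4, values that their choice as highest in goblet-enriched cells helps to set. Of 12887 other genes, Chrm1 ranked 14 in likeness to Chrm3 and 364 to Chrnb4, and Chrm3 ranked 443 to Chrnb4. The 5 genes most like Chrm1 were Chst4, a sulfotransferase that acts on mucin-type glycans, Trim3, Fah, Arfgap1 and Cacfd1 (r from 0.991 to 0.993). Chst4 stood at 303 ± 35.9 TPM in goblet-, 72.3 ± 32.3 TPM in Lgr5- and 55.0 ± 9.27 TPM in enterocyte-enriched cells (SD, n = 3).

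Most like Chrm3 were Shroom1, Sec31a, a coat protein of vesicles that leave the endoplasmic reticulum, Gne, the key enzyme of sialic acid synthesis, Creb3l1, a membrane-bound transcription factor of secretory cells, and Itm2c (r from 0.985 to 0.992). Creb3l1 stood at 1493 ± 190 TPM in goblet-, 418 ± 75.6 TPM in Lgr5- and 326 ± 74.6 TPM in enterocyte-enriched cells. Among the 5 most like Chrnb4 were Kdelr2, a retrieval receptor of the secretory pathway, Clptm1l, Enpp3 and Piwil4 (r from 0.992 to 0.996). Piwil4 stood at 30.0 ± 1.88 TPM in goblet-, 1.33 ± 0.361 TPM in Lgr5- and 2.31 ± 1.27 TPM in enterocyte-enriched cells.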

How the data were processed

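Poly-A RNA was sequenced from 9 libraries of sorted mouse colon epithelium. The authors' deposited table holds 1 log2 value per gene and library. Its values show log2(TPM) at 1 TPM and above and TPM minus 1 below, and they were turned back to TPM, which sums to 1000000 in each library. Cufflinks and mm10 are named in the submitters' processing notes. For the aligner and the use of strand in counting the sources used here give nothing, so a gene and its antisense partner cannot be told apart (Gm47877 overlaps Chrnb4 and Gm26861 overlaps Chrm3). Whole reads came out for 18386 of 18396 genes above 0 (99.95%, tolerance 1e-06 read), and they are lower bounds.

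The filter on low values kept the 12888 genes that reached 1 TPM in 3 or more libraries. On log2(TPM + 1), limma 3.58.1 (R 4.3.3, lmFit, eBayes with trend) fitted 1 mean per population over 9 libraries. Calls were two-sided at a Benjamini-Hochberg adjusted p below 0.05. Fold changes on this scale understate those of low genes. Ratios of means are in TPM. The p-values reflect only how far the libraries of a population spread. The members and lists were chosen with earlier results of these data known. Named genes were, from each list, up to 3 called genes per direction with the largest difference in each goblet comparison, all receptor genes, the synthesis and breakdown genes, the marker lists and the 5 genes most like each receptor, and 4 genes that this rule names are not reported here. Psma4, Arrb2, Atp2a2, Itpr1, Itpr2 and Tmem35 were added after their values were seen, and Morf4l1 and Ctsh are counted with the lists but not described, since they do not lie near Chrnb4. Of the marker lists, smooth muscle and fibroblast markers summed to 2.68 to 10.5 TPM and endothelial markers to 0 to 0.983 TPM in the goblet-enriched libraries. Leukocyte markers summed to 0.535 to 12.3 TPM in the goblet-enriched and 1.03 to 13.2 TPM in the Lgr5-enriched libraries. In enterocyte-enriched replicates 1 to 3 they summed to 239, 137 and 13.75 TPM, with Lyz2 at 232, 133 and 12.9 TPM. Lgr5 stem cell markers summed to 485 to 539 TPM in goblet-, 1108 to 1283 TPM in Lgr5- and 119 to 188 TPM in enterocyte-enriched libraries. Colonocyte markers summed to 552 to 1028, 197 to 298 and 5207 to 8844 TPM, listed likewise.

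Libraries with the same replicate number deviated together. The 9 pairs with the same number had deviations from their population means that correlated at 0.194 to 0.601, against -0.52 to 0.166 for 18 pairs with different numbers. The main fit does not use the replicate numbers, so its calls and missing calls are those of an unpaired fit. The pairing comes from these correlations: the series text gives an independent mouse per replicate, but the sex-linked transcripts of enterocyte-enriched replicate 1 differ from those of the other replicate 1 libraries, so these are not all from 1 mouse. Alternatives were another pseudocount, filter, scaling, sample weights, replicate block, pairs of populations alone, leaving out libraries and, added after the data were seen, limma-voom on the recovered reads.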

Additional observations from a re-analysis of the deposited data

How the results depend on the processing

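For the difference between enterocyte- and Lgr5-enriched cells, 14 of 20 alternatives kept the direction and the side of the threshold for Chrm1. For Chrm3 18 of 20 did, and for Chrnb4 20 of 20. The goblet differences of these 3 genes are left out here, since the choice set them. Counts of called genes were compared by their total only, and their splits moved with the scaling, as given above. The difference of Chrm1 between enterocyte- and Lgr5-enriched cells turned positive under median-of-ratios scaling (0.27, adjusted p = 0.465), quantile normalization (0.35, adjusted p = 0.288) and limma-voom on recovered reads (0.33, adjusted p = 0.598), and without Lgr5-enriched replicate 2 (0.17), Lgr5-enriched replicate 3 (0.13) or enterocyte-enriched replicate 1 (0.070). With a library, or replicate 1 of all populations, left out it ran from -0.41 to 0.17. Chrm3 was called with sample weights (-0.84, adjusted p = 0.0153), and in the same runs it was between -0.92 and -0.24 (called without Lgr5-enriched replicate 1 only). The adjusted p ran from 0.14 to 0.997 for Chrm1, 0.0153 to 0.733 for Chrm3 and 0.0978 to 0.547 for Chrnb4. Sample weights gave 7611 calls between goblet- and Lgr5-enriched cells in place of 4423, and leaving out libraries gave 2660 (without Lgr5-enriched replicate 3) to 5732 (without replicate 1 of all populations). The causes were not tested. With the replicate block the calls numbered 6357, 7891 and 7336 for goblet against Lgr5, enterocyte against Lgr5 and goblet against enterocyte, with 45, 40 and 53 of the listed genes. The block changed no call of the 3 receptors (adjusted p = 0.89, 0.132 and 0.108). Of the genes in the lists, the block lost none of the 38, 34 and 48 calls and gained 7, 6 and 5. Among those gained were Npy1r (1.54, adjusted p = 0.00138) and Htr4 (-1.12, adjusted p = 0.0058) for goblet against enterocyte. Atp2b1 was gained for goblet against Lgr5 (-0.46, adjusted p = 0.0141). Outside the goblet-enriched libraries the values of Chrm3 and Chrnb4 rest on 2 to 40 reads per library.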
